A study of Mus musculus with 34 samples.

Results

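The nuclear genes for subunits of oxidative phosphorylation were followed in mouse embryonic stem cells kept without leukaemia inhibitory factor (LIF), with and without the bee protein Royalactin. Members were taken from the table by symbol, as every row that begins with Nduf followed by a, b, c, s or v, with Uqcr, with Cox and a digit from 4 to 8, or with Atp5. This gave 88 of 23366 rows, of which 38 were assigned to complex I, 8 to complex III, 18 to complex IV and 15 to complex V. The other 9 were not subunits of these complexes, being the 7 complex I assembly factors Ndufaf1 to Ndufaf7, and Atp5s and Atp5sl, which carry the name of ATP synthase without being among its structural subunits.

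The cells were J1 mESCs, an established mouse line, sequenced in 2 RNA-seq libraries of the serum/-LIF condition and 2 of the serum/-LIF + Royalactin condition. Both groups grew on gelatin in the same serum medium, and Royalactin was added at 0.5 mg/ml. The labels give passage 40 for all of these cells. The labels name the replicates of each group by number only, so p-values measure the spread between these libraries, which may be technical, and in whole cultures fewer cells of a type and less RNA per cell cannot be told apart.

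The respiratory chain passes electrons from NADH through complex I, ubiquinone, complex III and cytochrome c to complex IV, where oxygen is reduced, and the protons pumped on the way drive complex V, the ATP synthase. Each of these complexes combines a few subunits encoded in mitochondrial DNA with many encoded in the nucleus, and the nuclear ones are made in the cytosol and imported. Embryonic stem cells are known for a high rate of glycolysis, and the balance between glycolysis and respiration is known to differ between pluripotent states.

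The depth on genes was 14737796 to 17597818 reads per library. The ribosomal RNA precursor Rn45s took 46.6% and 21.6% of them in serum/-LIF replicates 1 and 2, and 38.4% and 9.08% in Royalactin replicates 1 and 2, which left 7878527 to 15999458 reads for other genes. The members took 0.892% (Wilson 95% interval 0.886 to 0.899) and 1.15% (1.14 to 1.15) of the reads without Rn45s in the serum/-LIF libraries, and 0.863% (0.857 to 0.868) and 1.08% (1.08 to 1.09) in the Royalactin libraries. Intervals of this kind cover counting error only. All 9 markers of embryonic stem cells were detected in every library, with a summed level of 14450 and 16840 normalized counts without Royalactin and 27120 and 32840 with it, and 5 of them, among them Zfp42 and Esrrb, were called higher with Royalactin. Of the 8 fibroblast, 10 muscle, 7 endoderm and 4 neuron markers, 3, 6, 2 and 4 were abundant enough to be tested. Of these 15, 1 was called, the muscle gene Ttn, against 0.493% of all tested genes. Genes encoded in mitochondrial DNA, 26 of which were looked for, had no row in the table, so all values below describe the nuclear part of the complexes.

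No subunit gene was called different between serum/-LIF and serum/-LIF + Royalactin in any complex. In limma's fit over the 12993 genes that passed the filter on low values (a mean of 10 normalized counts), 81 members were tested and 0 had a Benjamini-Hochberg adjusted p under 0.05, against 64 of all tested genes (0.493%). At so low a share a count of 0 among 81 says little about the members. The lowest adjusted p of a member was 0.380 in limma. At an unadjusted p under 0.05 the members were 3 (3.70%), against 9.34% of all tested genes, and fits with other pseudocounts, filters and scalings also called 0 members after adjustment. Atp5sl and Ndufa2, or 2 members, passed an unadjusted p under 0.05 and a 2-fold difference in limma, against 7.13% of all tested genes. The study used these limits with DESeq, which was not run here. The group means of Ndufa2, 527 normalized counts without Royalactin and 267 with it, were just short of 2-fold. At least 2-fold differences without regard to p were fitted for 3 members, or 3.70%, against 19.6%.

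The members' median log2 fold change, Royalactin over serum/-LIF, was -0.14, beside -0.01 for all tested genes. The fitted value was below 0 for 58 members and above 0 for 23. The sign of this median depended on which library was left out. It was 0.15 without serum/-LIF replicate 2 and 0.07 without Royalactin replicate 1. It was -0.50 without serum/-LIF replicate 1 and -0.36 without Royalactin replicate 2. The pairs with the same replicate number differed as well, with a median log2 ratio of -0.06 between the replicates numbered 1, where 35 members were higher with Royalactin, and -0.27 between those numbered 2, where 26 were.

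The standard error of the log2 fold change had a median of 0.36 over the members and 0.44 over all tested genes. For 38 members (46.9%) the whole 95% interval lay within 2-fold in either direction, which held for 23.5% of all tested genes. By complex this was so for 7 of 8 subunits of complex III, 10 of 15 of complex V, 16 of 36 tested of complex I and 4 of 13 tested of complex IV. Differences smaller than these intervals could not be resolved with 2 libraries a group.

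Libraries of the 2 groups overlapped for most members. Both Royalactin libraries lay above both serum/-LIF libraries for 6 members (7.41%) and below them for 7 (8.64%), against 19.7% and 18.9% of all tested genes. The groups overlapped for the other 68.

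**Figure D1:**
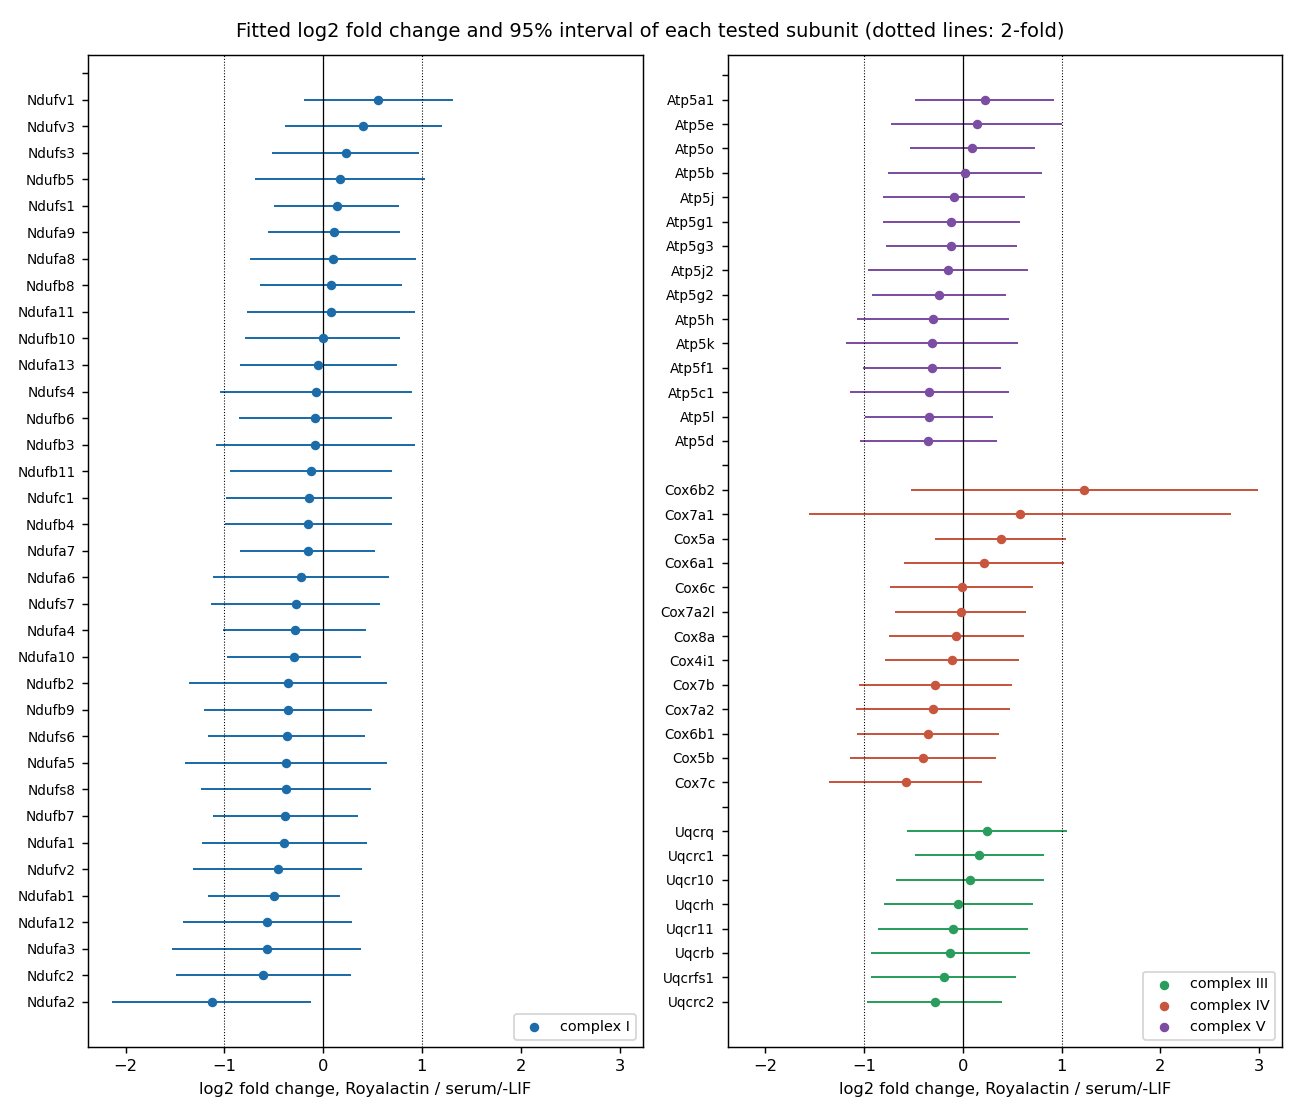
Fitted log2 fold change (points) and 95% interval (lines) of 71 of the 72 tested subunits, Royalactin over serum/-LIF, by complex, with dotted lines at 2-fold. The intervals of all subunits drawn cross 0 except that of Ndufa2, at the foot of complex I, and the points of complex III lie between -0.28 and 0.25.

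Complex I oxidises NADH and passes the electrons to ubiquinone. Of its 38 members 36 were tested, with a median log2 fold change of -0.15, and 9 were above 0 and 27 below. Its 7 core subunits encoded in the nucleus, which carry the flavin and the iron-sulphur clusters, had a median of -0.12, and the 29 tested accessory subunits had a median of -0.16 with 23 below 0. No test was made of the difference between core and accessory subunits.

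Ndufv1, the subunit that binds the flavin and takes the electrons from NADH, had the highest fold change of the complex. It is annotated at chr19:4007497-4012806 on the minus strand of mm9. Its normalized counts were 896 and 511 in the serum/-LIF libraries and 902 and 1101 in the Royalactin libraries. Both Royalactin libraries lay above both others, though serum/-LIF replicate 1 and Royalactin replicate 1 were nearly level. The log2 fold change was 0.56 (SE 0.35, 95% interval -0.19 to 1.30, adjusted p = 0.672 in limma). Ndufv2, its partner with an iron-sulphur cluster, had 1262 and 3328 normalized counts without Royalactin and 1558 and 1422 with it. Here serum/-LIF replicate 2 stood above the other three libraries, and the log2 fold change was -0.46 (SE 0.39).

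Ndufs1, the large subunit with several iron-sulphur clusters, varied little, at 1636 and 1457 normalized counts without Royalactin and 1590 and 1819 with it (log2 fold change 0.14, SE 0.29). Ndufs7, which carries an iron-sulphur cluster, had a log2 fold change of -0.28, and its libraries overlapped. Ndufs3 and Ndufs8, both in the arm that faces the matrix, had 0.23 and -0.37. For Ndufs3, 79.5% of 75-base windows of the transcript also matched another place in the genome within 2 mismatches, and 33.3% were identical there. Its count may depend on how such reads were placed.

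Ndufa2 was the member of complex I with the lowest fold change. This small accessory subunit of the matrix arm had 440 and 615 normalized counts in the serum/-LIF libraries and 144 and 391 in the Royalactin libraries. Both Royalactin libraries lay below both others, and Royalactin replicate 1 was by far the lowest. Its log2 fold change was -1.13 (SE 0.46, 95% interval -2.12 to -0.14), with an unadjusted p of 0.0289 and an adjusted p of 0.450 in limma. Ndufa1 and Ndufab1, the latter also the acyl carrier protein of mitochondrial fatty acid synthesis, were the other subunits of complex I with both Royalactin libraries below, at log2 fold changes of -0.39 and -0.50, and Ndufv3 was the other with both above, at 0.41. These 3 were named after their values were seen.

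Levels between genes were compared as normalized counts per kb of one coding transcript. Ndufa4 had the highest mean level among the genes listed under complex I, 3670 per kb, against a median of 619 for its 36 tested genes. Ndufa4 was long placed in complex I and has since been found in complex IV, and with Ndufa4 and Ndufa4l2 moved there the medians of the log2 fold changes were -0.15 for complex I and -0.09 for complex IV. Its counts were 1448 and 2588 without Royalactin and 1461 and 1717 with it. The replicates 1 of the 2 groups were nearly equal, and the log2 fold change was -0.29 (SE 0.33). The low places in this order are less certain, since Ndufb2, Ndufab1, Uqcrq and Atp5g1 have other annotated coding transcripts that are much shorter than the one used.

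**Figure D2:**
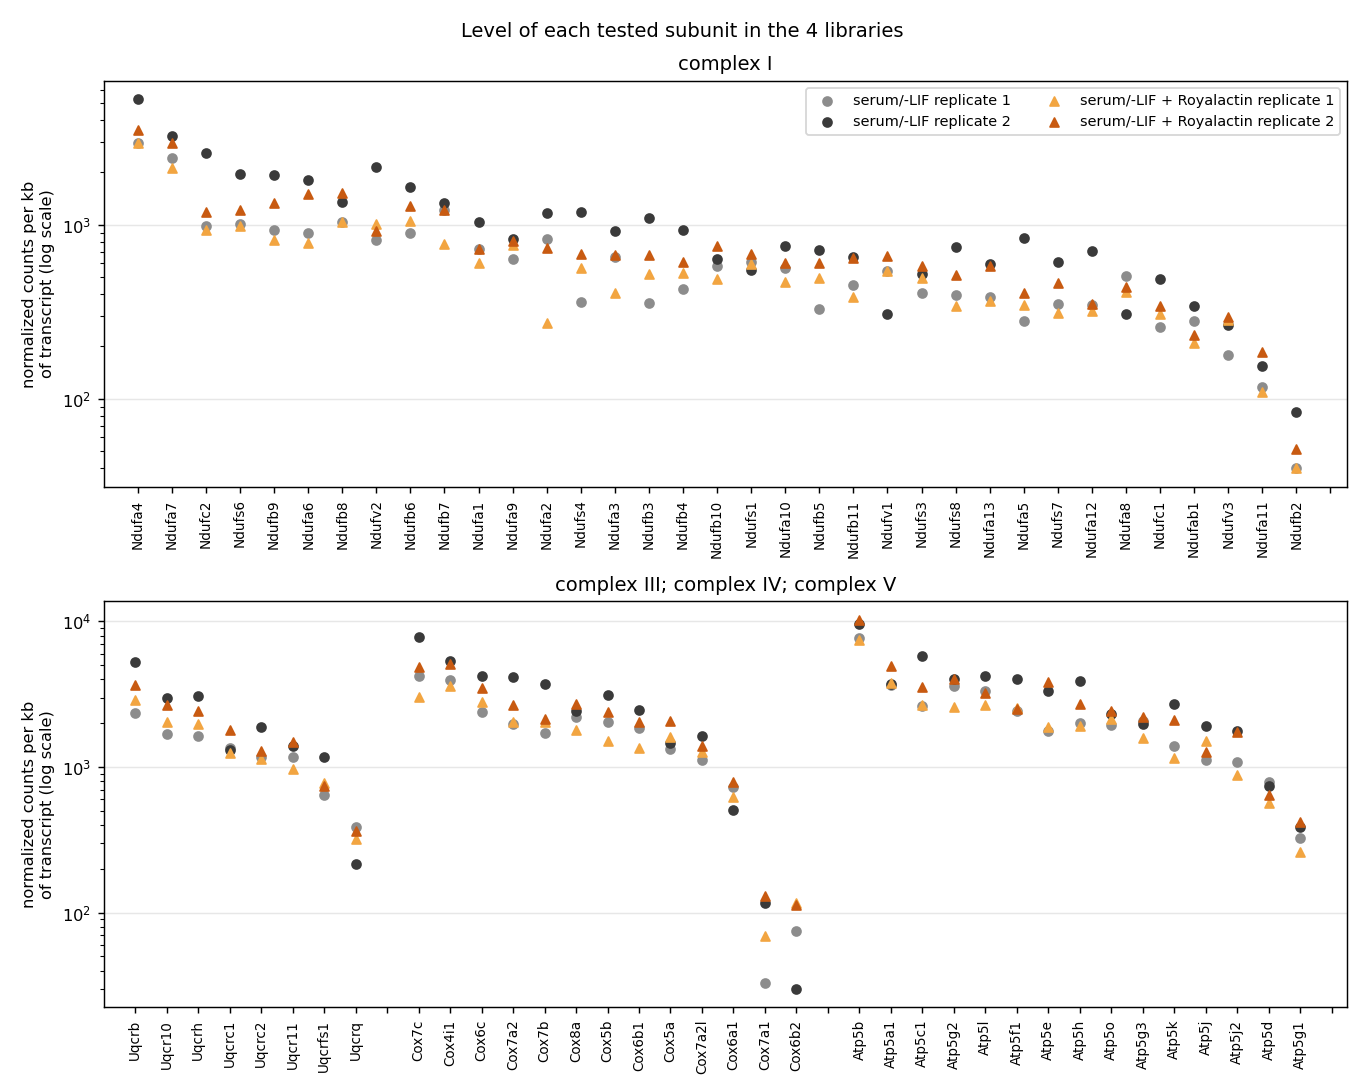
Level of 71 of the 72 tested subunits in the 4 libraries, in normalized counts per kb of transcript on a log scale, ordered by the mean within each complex, with circles for serum/-LIF and triangles for serum/-LIF + Royalactin. Complex V is led by Atp5b, and Cox7a1 and Cox6b2 sit far below the rest of complex IV.

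Ndufs5, an accessory subunit of complex I found in all cells that build the complex, was listed at 0 in all 4 libraries. A floor of 3 reads corresponds to 2.07 to 4.01 normalized counts in these libraries. The gene is annotated at chr4:123389953-123395445 on the minus strand of mm9. Of 19 windows of 75 bases along its transcript, 18 (94.7%) matched another place in the genome and 14 were identical there. All of the identical ones lay in chr16:42955677-42956176, a processed copy annotated as the pseudogene BC002163, which the table also lists at 0 in all 4 libraries. One such window is printed because it spans the join of a pair of coding exons and still has an identical copy in the genome, at chr16:42955927-42956001 on the plus strand. It covers transcript bases 276 to 350, 5′ to 3′, with the 5 bases on either side of the exon join in capitals.
Ndufs5: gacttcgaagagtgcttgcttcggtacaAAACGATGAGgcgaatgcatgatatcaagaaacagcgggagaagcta
A read with these letters matches both places equally. The members with a larger share of identical windows than the 73.7% of Ndufs5 had counts in every library. They were Atp5g2 (100%), with 1669 to 2609 normalized counts, and Atp5l (83.3%), with 1363 to 2140. For these genes the place with the most identical windows had no values of its own, unlike BC002163, so the cases are not alike. The part of shared sequence in the value of 0 was not tested, and the 0 is not a measurement of absence.

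Shared sequence was common among the members, as is known for genes of the respiratory chain with many processed copies. Of the 88, 44 had at least 1 window that matched elsewhere, 30 had an identical one, and 11 had a match for most of their windows. The tested members among these 11 had a median log2 fold change of -0.18, the 33 with fewer such windows -0.14, and the tested ones with none -0.16. For Atp5g2, a gene for the ring subunit of ATP synthase, all 23 windows had an identical copy on an unplaced contig of the same build. Exons of 18 members overlapped a gene on the opposite strand, and the strand setting of the counting is not given in the sources used here, so reads of the partners cannot be told apart for these.

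Complex III hands electrons from ubiquinol to cytochrome c. All 8 of its members were tested, with a median log2 fold change of -0.07, and the groups overlapped for every one of them. The sign of this median turned with a correction for GC content and length, to 0.16 with 6 of the 8 above 0. Uqcrfs1, the Rieske iron-sulphur protein, had 879 and 1601 normalized counts in the serum/-LIF libraries and 1058 and 1017 in the Royalactin libraries. The Royalactin libraries lay between the 2 serum/-LIF libraries, and the log2 fold change was -0.19 (SE 0.34). The core proteins Uqcrc1 and Uqcrc2, which hold the complex together on the matrix side, had log2 fold changes of 0.17 (SE 0.30) and -0.28 (SE 0.31), the latter the lowest of the complex. Uqcrq, a small subunit next to cytochrome b, had the highest, 0.25 (SE 0.37). Uqcrb, which binds near ubiquinone, had the highest level per kb of the complex at 3540, with 1257 and 2831 normalized counts without Royalactin and 1543 and 1942 with it. For Uqcrb 89.5% of windows matched elsewhere and 42.1% were identical there.

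Complex IV is cytochrome c oxidase. Of its 18 members 13 were tested, and their median log2 fold change was -0.07 with 4 above 0 and 9 below. With the correction for GC content and length it was 0.093, with 7 above 0 and 6 below. Cox5a, a subunit on the matrix side of the enzyme, had 915 and 1011 normalized counts without Royalactin and 1102 and 1432 with it. Both Royalactin libraries lay above both others, and the log2 fold change was 0.39 (SE 0.30, 95% interval -0.27 to 1.04, adjusted p = 0.752 in limma). Cox5b, which binds zinc, had 1158 and 1760 against 859 and 1359, with overlapping groups and a log2 fold change of -0.40 (SE 0.34). For Cox5b 85% of windows matched elsewhere and 50% were identical there. Cox4i1, the subunit through which ATP inhibits the enzyme, had 2672 and 3640 against 2428 and 3442. Replicate 2 was higher than replicate 1 in both groups, and the log2 fold change was -0.11 (SE 0.31).

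Cox7c had the highest level of complex IV, 4950 per kb, and also the lowest fold change. Its counts were 2263 and 4189 without Royalactin and 1624 and 2625 with it, so that the groups overlapped, at a log2 fold change of -0.58 (SE 0.36, adjusted p = 0.670 in limma). For Cox7c 68.4% of windows matched elsewhere.

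Several subunits of complex IV have a form used in most tissues and another used in muscle, lung or testis, and in J1 mESCs the former was by far the more abundant. Cox4i2, the lung form, had 2.01 normalized counts in Royalactin replicate 1 and 0 in the other libraries. The 2.01 came from 2 reads, under the floor of 3 reads. Cox6a2, the form of heart and skeletal muscle, had 6.20 normalized counts in Royalactin replicate 2 and 0 in the others. Cox8b and Cox8c were listed at 0 in all 4 libraries, beside 983 to 1479 normalized counts for the ubiquitous Cox8a, and Ndufa4l2, a form known to be induced by hypoxia, had 5.18 in serum/-LIF replicate 2, 13.8 in Royalactin replicate 2 and 0 elsewhere. None of these reached the mean of 10 needed for a test, and Cox7b2, a testis form, did not either. Cox7b2 had 1.34 and 0 normalized counts without Royalactin and 5.03 and 11 with it. The 1.34 came from 1 read, also under the floor.

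Cox6b2, the form of Cox6b known from testis, was detected in every library and had the highest fold change among the subunits. It lies at chr7:4703396-4704696 on the minus strand of mm9. Its normalized counts were 41.5 and 16.6 in the serum/-LIF libraries, from 31 and 16 reads, and 64.4 and 62.0 in the Royalactin libraries, from 64 and 90 reads. Both Royalactin libraries lay above both others, but the serum/-LIF libraries differed more from each other than the higher of them did from Royalactin. The log2 fold change was 1.23 (SE 0.81, 95% interval -0.52 to 2.98, adjusted p = 0.696 in limma). Of the reads of Cox6b1 and Cox6b2 together, Cox6b2 took 4.26% (Wilson 95% interval 3.02 to 5.98) and 1.32% (0.814 to 2.13) without Royalactin. With Royalactin it took 8.57% (6.77 to 10.8) and 5.68% (4.65 to 6.93), and the nearest intervals of the groups overlapped. Both genes enter this share. Cox6b1 had 932 and 1239 normalized counts without Royalactin and 687 and 1028 with it, at a log2 fold change of -0.35.

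Cox7a1, the form of heart and skeletal muscle, was also low in every library, at 12.0 and 42.4 normalized counts without Royalactin and 25.1 and 47.5 with it. The groups overlapped, the log2 fold change was 0.58 and its SE of 0.99 was the largest of the members. Its ubiquitous counterpart Cox7a2 had 1495 and 3146 against 1542 and 1997, and Cox7a2l, which joins complexes III and IV into supercomplexes, had 1287 and 1864 against 1457 and 1597. Neither differed beyond the spread of its replicates, at log2 fold changes of -0.31 (SE 0.36) and -0.02 (SE 0.31). For Cox7a2l 76.7% of windows matched elsewhere and 44.2% were identical there. Among the 6 muscle markers tested Ttn was called higher with Royalactin, Myh7 had a fold change above 0 without being called, and 4 were below 0 without being called. The lowest of these was Acta1, with 49.5 and 91.1 normalized counts without Royalactin and 0 and 0.688 with it, and Myl7, Actc1 and Myh6 had at most 72.5 in any library. Of the 4 muscle markers not tested Tnnt2 and Ckm were at 0 in all 4 libraries, and Nkx2-5 and Myog had at most 11.4. The part of these markers in the values of Cox7a1 was not tested.

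**Figure D3:**
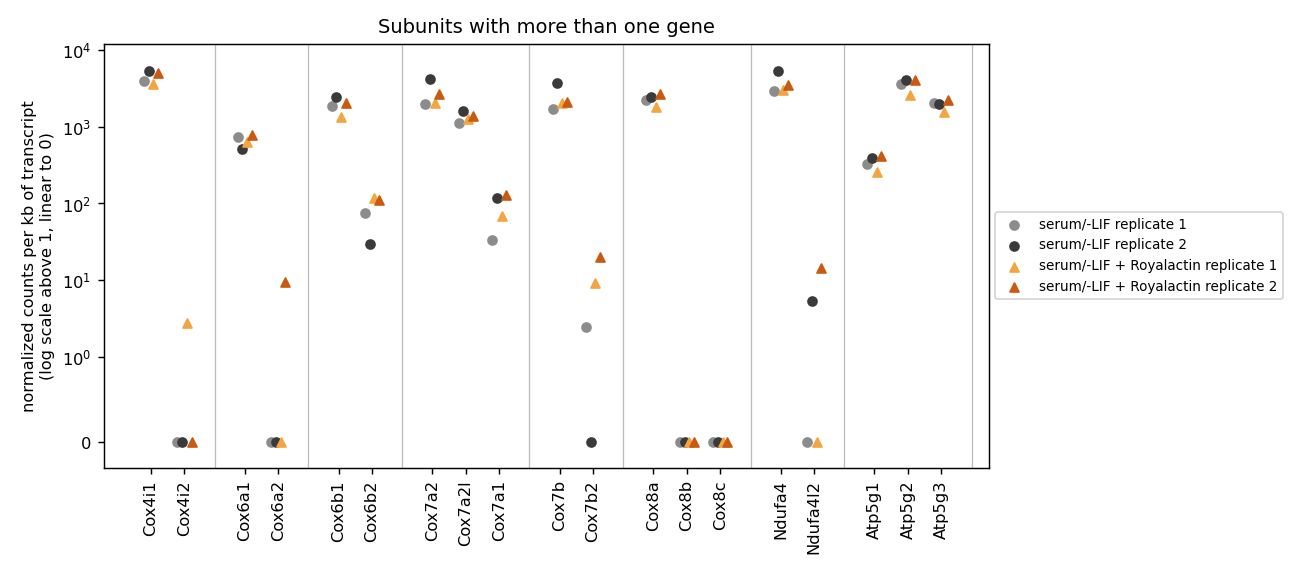
Levels of subunits with more than one gene in the 4 libraries, in normalized counts per kb of transcript, on a scale that is logarithmic above 1 and linear down to 0, with one panel segment per family. In each family of complex IV the tissue-restricted forms lie far below the common form or at 0. For each of the 3 Atp5g genes the libraries lie close together, while the genes differ in level.

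Complex V, the ATP synthase, had all of its 15 members tested, with a median log2 fold change of -0.15 and 4 above 0. Atp5b, the catalytic beta subunit, had the highest level per kb of all members, 8770. It lies at chr10:127520329-127527447 on the plus strand of mm9. Its normalized counts were 14830 and 18380 in the serum/-LIF libraries and 14350 and 19650 in the Royalactin libraries. Replicate 2 was the higher one in both groups and the groups covered the same range, with a log2 fold change of 0.02 (SE 0.36, 95% interval -0.75 to 0.79). Atp5a1, the alpha subunit that alternates with beta in the catalytic head, had 8999 and 9231 against 9275 and 12230. Both Royalactin libraries lay above both others, replicate 1 only just, and the log2 fold change of 0.22 (SE 0.32) was the highest of the complex. Atp5c1, the rotating gamma subunit, had 3080 and 6755 against 3128 and 4158, with serum/-LIF replicate 2 far above the rest and a log2 fold change of -0.34 (SE 0.37), which was 0.23 without that library.

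Atp5d, the delta subunit of the central stalk, had the lowest fold change of complex V. Its counts were 736 and 694 without Royalactin and 529 and 595 with it, both Royalactin libraries below both others. The log2 fold change was -0.35 (SE 0.32, 95% interval -1.03 to 0.34, adjusted p = 0.794 in limma). Atp5l, a small membrane subunit named after its values were seen, was the other member of the complex with both Royalactin libraries below both others, at a log2 fold change of -0.34, and 88.9% of its windows matched elsewhere.

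Atp5g1, Atp5g2 and Atp5g3 encode the same mature ring subunit with different import sequences. Of the reads of the 3 genes together, Atp5g2 took 43.5% (Wilson 95% interval 41.9 to 45.0) and 44.5% (43.2 to 45.8) in the serum/-LIF libraries and 41.5% (40.0 to 43.0) and 42.3% (41.3 to 43.4) in the Royalactin libraries. Atp5g1 took 28.9% to 31.3% and 30.6% to 32.0%, and Atp5g3 took 24.2% to 27.6% and 25.7% to 27.9%. Windows matched elsewhere were 28.5% for Atp5g1, 100% for Atp5g2 and 0% for Atp5g3. These shares may depend on how such reads were placed. The share of Atp5g2 was lower in both Royalactin libraries than in both serum/-LIF libraries, though the intervals of the nearest ones overlapped, and the shares of the other two genes overlapped between the groups.

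Outside the structural subunits, Atp5sl had the lowest p of all members. Despite its name the protein is known as a factor in building the membrane arm of complex I. Its normalized counts were 153 and 119 in the serum/-LIF libraries and 293 and 312 in the Royalactin libraries. The groups were well apart, with the Royalactin libraries close to each other. The log2 fold change was 1.16 (SE 0.43, 95% interval 0.24 to 2.08), with an unadjusted p of 0.0169 and an adjusted p of 0.380 in limma. Over the alternatives its log2 fold change ran from 0.98 to 1.34 and its adjusted p from 0.0554 to 1.00. Of the Ndufaf assembly factors 5 of 7 had a fold change below 0, with a median of -0.40, and Ndufaf6, also named after its values were seen, had 413 and 536 against 257 and 257 normalized counts (log2 fold change -0.87, unadjusted p = 0.0329 and adjusted p = 0.469 in limma).

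Within both conditions the replicates differed in the same direction. Replicate 2 was above replicate 1 for 70 of 81 tested members in serum/-LIF (86.4%) and for 73 in serum/-LIF + Royalactin (90.1%), where all tested genes gave 48.3% and 49.9%. The median log2 ratio of replicate 2 to replicate 1 was 0.57 over the members without Royalactin and 0.36 with it, against -0.03 and 0.00 over all tested genes. The highest of the 4 libraries was serum/-LIF replicate 2 for 54 members, Royalactin replicate 2 for 22, serum/-LIF replicate 1 for 4 and Royalactin replicate 1 for 1.

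**Figure D4:**
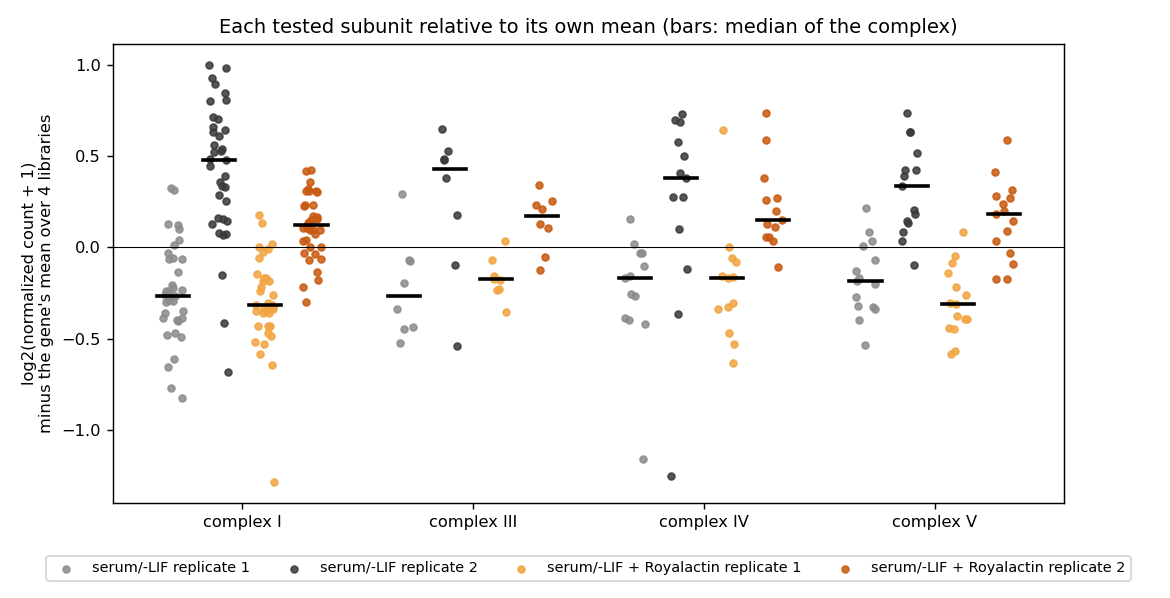
Each tested subunit in each library as log2(normalized count + 1) minus the gene's own mean over the 4 libraries, by complex, with bars at the median of the complex. In all 4 complexes the medians of both replicates 2 lie above 0 and those of both replicates 1 below it.

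All complexes shared this order. The median deviation from the gene's own mean in serum/-LIF replicate 2 was 0.48 for complex I, 0.43 for complex III, 0.38 for complex IV and 0.34 for complex V, and in Royalactin replicate 2 it was 0.12, 0.17, 0.15 and 0.19. The same order was seen in other gene families. Of 76 tested mitochondrial ribosomal protein genes replicate 2 was higher for 70 in serum/-LIF and 69 with Royalactin, and of 81 tested cytosolic ribosomal protein genes for 78 and 81. Their median log2 fold changes were -0.14 and -0.36.

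**Figure D5:**
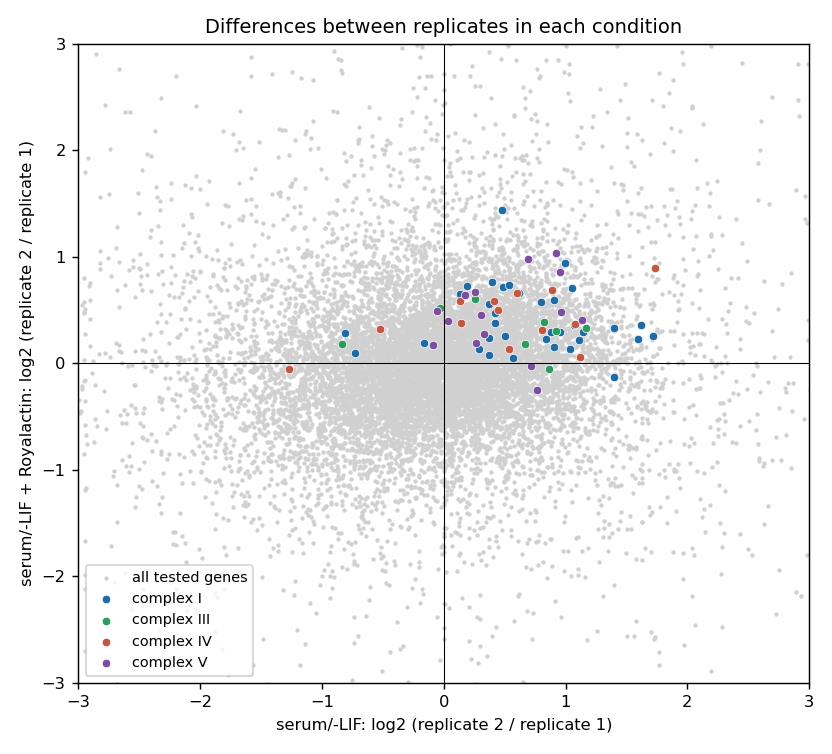
The log2 ratio of replicate 2 to replicate 1 in serum/-LIF (horizontal) and in serum/-LIF + Royalactin (vertical) for the tested subunits, coloured by complex, and for all tested genes in grey. Most subunits lie above 0 on both axes, and 902 of the tested genes lie beyond the axes, which end at a log2 ratio of 3.

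Across the 81 members the 2 log2 ratios had a Pearson r of -0.06, given as a description of genes that share their libraries. Across the same genes the ratio in serum/-LIF had an r of -0.39 with the GC content of the transcript, and the ratio with Royalactin had an r of 0.46. For the 41 members with a GC content of at least 51.5% the median log2 ratios were 0.42 without and 0.58 with Royalactin, and for the other 40 they were 0.87 and 0.27. The members' median fold change was -0.10 in the former and -0.28 in the latter, and with a correction for GC content and length over all genes it was -0.02, with 39 members above 0. The share of Rn45s was lower in replicate 2 of both groups. The part of base composition and of ribosomal RNA in these differences was not tested.

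The rest of the pathway was read from lists of genes. Since 0.493% of all tested genes were called, a count of 0 called in such a list carries little information. The 4 subunits of complex II, which link the citric acid cycle to ubiquinone, had a median log2 fold change of 0.09 and 0 were called. Cytochrome c, the mobile carrier encoded by Cycs, had 1668 and 4085 normalized counts without Royalactin and 1583 and 1638 with it, and serum/-LIF replicate 2 stood alone (log2 fold change -0.70, SE 0.38). Cyc1, the cytochrome of complex III that the symbol rule does not reach, had -0.05 (SE 0.29). Of 33 tested assembly factors outside the rule 0 were called, 14 were above 0 and 19 below. Their highest and lowest fold changes were those of Lyrm7, which matures the Rieske protein, at 1.94 (SE 1.21), and Cox20, a chaperone of complex IV, at -1.21 (SE 0.71). For 16 genes of mitochondrial mass, such as import channels, porins and citrate synthase, the median was -0.05 and 0 were called.

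Among 16 tested regulators of respiratory genes 1 was called, against 0.493% of all tested genes. Esrrb, an oestrogen-related receptor that is also a pluripotency factor, had 233 and 181 normalized counts in the serum/-LIF libraries and 1641 and 1390 in the Royalactin libraries. The groups were far apart, and it rose with a log2 fold change of 2.87 (SE 0.33, adjusted p = 0.00273 in limma). Stat3, which also acts in mitochondria, had 195 and 150 against 554 and 500 (log2 fold change 1.62, adjusted p = 0.107). Nrf1 and Gabpa, activators known to bind many respiratory promoters, had 0.16 (SE 0.31) and 0.39 (SE 0.29), Tfam, which packages mitochondrial DNA, had -0.34 (SE 0.34), and the coactivator Ppargc1a was too low to be tested. Atpif1, the inhibitor of ATP synthase, had -0.23 and the uncoupling protein gene Ucp2 had 0.16.

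Promoters were read from RefSeq (GRCm38.p6) for 73 of the 88 members, from 250 bases before to 50 after the start. The core of NRF1 sites, GCGCA and GCGC with any 1 base between them, occurred on either strand in 17 of them (23.3%), against 5.19% of 27025 genes with a promoter and 11.5% of the 10238 tested genes. The YY1 letters AAGATGGC occurred in 11 (15.1%), against 3.19% and 5.23%. The ETS letters CCGGAAG, read by GABPA, occurred in 20.5% against 9.93% and 19.9%, and the SP1 letters GGGCGG in 43.8% against 38.2% and 70.0%. The letters TCAAGGTCA of oestrogen-related receptors were found in 1 member, Atp5g3 (1.37% against 0.466% and 0.322%). None of these letter runs is contained in another, and matches of different ones may share bases.

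The 16 tested members with the NRF1 letters had a median log2 fold change of -0.23 and the 54 without had -0.13, and the groups overlapped for all 16. For YY1 the medians were -0.14 with and -0.16 without, and for ETS -0.10 and -0.15. Atp5g3, with the letters of oestrogen-related receptors, had 1472 and 1419 normalized counts without Royalactin and 1124 and 1578 with it. Its groups overlapped, at a log2 fold change of -0.12 (SE 0.30). A match is a run of letters and no measurement of binding.

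The 250 bases before the start are printed, 5′ to 3′ on the gene's strand, for the highest tested subunit per kb of complexes I, IV and V with the NRF1 letters in this stretch, and for Atp5g3. In complex III the NRF1 letters of Uqcrc1 lay outside it. The promoters are shown for the place of these letters, and they are Ndufs6 at chr13:73328483-73328732, Cox6a1 at chr5:115348959-115349208, Atp5c1 at chr2:10080433-10080682 and Atp5g3 at chr2:73911327-73911576, all on the minus strand of GRCm38.p6. Capitals mark every match to the motifs above on either strand.
Ndufs6: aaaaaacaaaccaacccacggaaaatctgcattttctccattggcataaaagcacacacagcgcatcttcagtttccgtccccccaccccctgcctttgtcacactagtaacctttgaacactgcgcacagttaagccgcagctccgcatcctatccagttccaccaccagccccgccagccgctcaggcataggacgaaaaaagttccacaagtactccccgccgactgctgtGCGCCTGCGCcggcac
Cox6a1: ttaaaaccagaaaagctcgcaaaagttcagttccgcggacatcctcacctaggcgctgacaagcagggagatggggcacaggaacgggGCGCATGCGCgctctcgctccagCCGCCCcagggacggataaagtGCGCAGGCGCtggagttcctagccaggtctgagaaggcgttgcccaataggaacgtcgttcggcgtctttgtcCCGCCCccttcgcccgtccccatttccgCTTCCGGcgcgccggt
Atp5c1: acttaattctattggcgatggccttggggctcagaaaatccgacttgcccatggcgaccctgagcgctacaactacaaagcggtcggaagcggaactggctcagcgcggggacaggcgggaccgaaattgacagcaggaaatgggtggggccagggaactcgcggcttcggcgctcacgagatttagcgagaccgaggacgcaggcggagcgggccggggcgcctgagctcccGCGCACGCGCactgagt
Atp5g3: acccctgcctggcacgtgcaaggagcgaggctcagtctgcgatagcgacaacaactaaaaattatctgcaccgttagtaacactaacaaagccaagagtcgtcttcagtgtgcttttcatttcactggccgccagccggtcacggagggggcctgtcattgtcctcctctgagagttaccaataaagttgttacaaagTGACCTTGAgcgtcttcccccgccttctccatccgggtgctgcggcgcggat
The NRF1 letters begin 16 bases before the start in Ndufs6, an accessory subunit that binds zinc, and 17 in Atp5c1. In Cox6a1 they begin 162 bases before the start and occur at 2 places, together with SP1 and ETS letters. Another RefSeq start of Atp5c1 had no NRF1 letters in its promoter. The oestrogen-related receptor letters of Atp5g3 begin 52 bases before its start, and its NRF1 letters lie outside the printed stretch. The log2 fold changes of these genes were -0.37 for Ndufs6, 0.21 for Cox6a1, -0.34 for Atp5c1 and -0.12 for Atp5g3, and the libraries of the 2 groups overlapped for all of them.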

How the data were processed

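The data were 4 RNA-seq libraries of J1 mESCs, 2 per condition, with groups and replicate numbers taken from the sample labels. ATAC-seq libraries of the series were not analysed here. The authors aligned the reads to mm9 with Tophat, took gene counts with HTSeq-count, and deposited them after division by 1 DESeq size factor per library, as a signal proportional to reads. Every value was a whole multiple of one step per library within 0.01 of a read, and depths are the values divided by that step. In 1 library the step was near 1, at 1.006. No count test was run, and the test for normalized values was used.

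The log2(normalized count + 1) values of genes with a mean of at least 10 were fitted with limma 3.58.1 in R 4.3.3 (eBayes with a variance trend, two-sided, Benjamini-Hochberg over all tested genes), after the steps were tested on simulated data. The members, lists and naming rule were chosen with earlier results of these data known. Named by the rule were members past an unadjusted p of 0.05 and 2-fold, the highest, lowest and most abundant member of each complex, the core or catalytic subunits and subunits with several genes. For 1 member the values are not reported here.

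Lengths, GC content and positions came from GENCODE annotation of mm9, which matched 98.2% of tested genes and all 88 members. Level per kb used the first listed coding transcript. Windows of 75 bases every 25 bases were mapped with minimap2 2.31-r1302, allowing 2 mismatches. Alternatives were other pseudocounts, filters and scalings, the replicate block, a GC content and length correction (lowess span 0.3), limma without the trend, and each library left out.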

Additional observations from a re-analysis of the deposited data

How the results depend on the processing

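Under every alternative run, 0 members had an adjusted p under 0.05 in limma. The number of all tested genes called was 64, and it was 32 with a pseudocount of 0.1, 34 over every gene with a value above 0, 99 with a mean of at least 50, 272 with the GC content and length correction, and 0 without the variance trend (1135 at an unadjusted p under 0.05) or without any one library (428 to 2496 at an unadjusted p under 0.05). Leaving out one library moved the number of all genes past an unadjusted p of 0.05 and 2-fold, 927, to between 427 and 1925. For the members this number was 2. It was 1 without the trend, 1 with the GC content and length correction, 1 with the assembly factors, Atp5s and Atp5sl left out, and 0 to 9 with one library left out, the 9 being without serum/-LIF replicate 1. The members above 0 were 23, then 39 with the GC content and length correction and 14 to 58 with one library left out. With one library left out the median log2 fold change ran from -0.62 to 0.15 for complex I, -0.42 to 0.20 for complex III, -0.33 to 0.23 for complex IV and -0.43 to 0.18 for complex V, so all of them took both signs.

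With 2 numbered replicates a group, deviations of same-numbered libraries had a Pearson r of 0.09 over all tested genes and -0.06 over the members. Such an r leaves out a shift that all genes of a set share. Replicate 2 was above replicate 1 for 70 of the 81 tested members without Royalactin and for 73 with it. Whether the numbers pair the libraries was not settled. With the replicate block 391 genes were called and 0 members. With the replicate block and the GC content and length correction 806 genes and 0 members were called, 1 member passed the unadjusted p of 0.05 and 2-fold, and 39 members were above 0.

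With the GC content and length correction, with or without the block, the log2 fold change turned to 0.055 for Atp5g3, 0.093 for Cox4i1, 0.13 for Cox7a2l, 0.18 for Cox8a, 0.036 for Ndufa4 and 0.20 for Uqcrb. With scaling to the total without Rn45s, which moved the median of all tested genes to 0.05, Cox7a2l was at 0.034. With one library left out, the log2 fold changes of these named members took both signs, also where the value over all libraries was as far from 0 as 0.58 (Cox7a1) or -0.46 (Ndufv2). They ran from -0.20 to 0.25 for Atp5b, -0.91 to 0.23 for Atp5c1, -0.45 to 0.22 for Atp5g1, -0.56 to 0.079 for Atp5g2, -0.36 to 0.13 for Atp5g3, -0.36 to 0.14 for Cox4i1, -0.047 to 0.47 for Cox6a1, -0.29 to 1.45 for Cox7a1, -0.84 to 0.23 for Cox7a2, -0.29 to 0.25 for Cox7a2l, -0.36 to 0.23 for Cox8a, -0.71 to 0.13 for Ndufa4, -0.68 to 0.12 for Ndufs7, -0.83 to 0.080 for Ndufs8, -1.16 to 0.24 for Ndufv2, -0.71 to 0.46 for Uqcrb, -0.092 to 0.43 for Uqcrc1, -0.62 to 0.050 for Uqcrc2, -0.63 to 0.24 for Uqcrfs1 and -0.17 to 0.66 for Uqcrq. A lone library left in a group was assumed to vary like the others. The cause of these changes was not tested.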
